A study of Mus musculus with 6 samples.

Results

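*Plk2*, *Phlda3*, *Eda2r*, *Mdm2*, *Aen*, *Ccng1*, *Cdkn1a*, *Sesn2*, *Zmat3* and *Trp53inp1* are targets of the transcription factor p53, taken by gene symbol as a list of p53 targets other than the *Bcl2* family genes of apoptosis. The list was chosen with earlier results of these data known, so counts over it are a description. They are 10 of the 55364 genes listed in the table, and all 10 were among the 17353 genes tested. Their mRNA was measured by RNA-seq in mouse morulae of the cross BDF1 x BDF1, from BDF1 females of 8 to 12 weeks and BDF1 males of 10 to 12 weeks. Zygotes obtained by in vitro fertilization were injected with siRNA, either a control (control KD) or one against *Yy1* (*Yy1* KD), and were cultured in KSOM medium until 64 h after insemination. Each group had 3 libraries, and each library was made from 10 pooled morulae, so that differences between single embryos are averaged within a library. One siRNA against *Yy1* is described, and no group with a second siRNA or a rescue was analysed here. Values are TPM, read pairs per length of exon scaled to the same total in every library. YY1 is a zinc finger transcription factor, and the comparison asks which genes changed when it was depleted.

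The p53 protein is kept low in unstressed cells because MDM2, itself the product of a p53 target gene, marks it for degradation. When DNA damage, ribosomal stress or other signals release it from MDM2, p53 binds pairs of half-sites near its target genes and raises their transcription. The targets arrest the cell cycle, repair DNA, restrain growth signals, feed back on p53 or favour cell death.

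The promoter windows of the genes were read to show where a p53 binding sequence lies close to a start site. RefSeq (GRCm38.p6) windows of 250 bases before to 50 bases after the start were present for 8 of the 10 genes, and windows for *Zmat3* and *Trp53inp1* were not used here. Each window was compared with the 20-base p53 consensus, 2 half-sites of 10 bases without a spacer, on both strands, which read alike. The best matches are shown with 20 flanking bases on each side for the 2 genes with the closest match, and alone for *Aen*. Capitals mark bases that match the consensus, and lower case marks mismatches and flanks.
Ccng1: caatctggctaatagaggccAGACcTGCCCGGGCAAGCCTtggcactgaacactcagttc
Cdkn1a: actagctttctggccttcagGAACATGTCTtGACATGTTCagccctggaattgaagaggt
Aen: GGGCTTGTCCGGGCAAGgag

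The *Ccng1* sequence (chr11:40755462-40755481, minus strand) and the *Cdkn1a* sequence (chr17:29090928-29090947, plus strand) each matched 19 of 20 bases and lay upstream of the first annotated exon. A match at least as close was present in 29 of 32851 promoter windows (0.0883%). *Cdkn1a* had another window, of a start site further downstream (chr17:29093519-29093818), in which the best match had 15 of 20 bases and no exact half-site was present. The *Aen* sequence (chr7:78895937-78895956, plus strand), which matched 17 of 20 bases, lies in an exon of *Aen*, and 6.29% of all windows held a match of at least that quality. The best match in the windows of *Plk2*, *Phlda3*, *Mdm2* and *Sesn2* had 15 matching bases and that of *Eda2r* had 14, and 30.2% of all windows held 16 or more. An exact half-site was present in windows of *Aen*, *Mdm2*, *Ccng1* and *Cdkn1a*, beside 8.36% of all windows. The YY1 core GCCATNTT, searched on both strands, was present in 0 of the 10 member windows and in 6.05% of all windows. Sites further away, such as those in introns, lie outside these windows.

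The siRNA target was depleted in all 3 *Yy1* KD libraries. *Yy1* had 96.0, 100.2 and 89.8 TPM in control KD replicates 1, 2 and 3 and 8.73, 8.90 and 8.32 TPM in *Yy1* KD replicates 1, 2 and 3, a mean of 9.07% of the control KD level. Between 11793509 and 24417789 read pairs on genes were recovered per library. Markers of the morula were expressed in every library, with 11 of 11 marker genes tested and a summed level of 2114 to 2398 TPM in the control KD pools and 1773 to 2098 TPM after *Yy1* KD. Of these 11 genes, 8 were lower and 3 higher after *Yy1* KD. The trophectoderm factor gene *Tfap2c* was called downregulated (log2 fold change -0.54, limma adjusted p = 0.0174), 1 of 11, beside 4.2% of all genes, and 0 were called upregulated. At an unadjusted p under 0.05 there were 3 lower and 0 higher. With limma-voom *Tfap2c* and *Cdh1* were called downregulated, beside 2086 of 16931 genes called in either direction. Of 8 genes of cumulus and granulosa cells, the somatic cells around the oocyte, 5 were listed at 0 in every library, and the sum of all 8 was 8.77 to 10.6 TPM in the control KD pools and 8.08 to 9.31 TPM after *Yy1* KD. In pooled embryos, fewer cells that express a gene cannot be told apart from less RNA per cell.

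The difference between *Yy1* KD and control KD morulae was uneven across the 10 p53 targets. *Plk2*, *Phlda3*, *Eda2r*, *Mdm2* and *Aen* were upregulated, by between 1.41-fold and 3.40-fold in mean TPM. *Sesn2* and *Zmat3* were higher in all 3 *Yy1* KD libraries than in any control KD library without passing the test. Their means rose 1.57-fold and 1.64-fold, more than that of *Aen* (1.41-fold), so the calls do not order the genes by size. The values of *Ccng1*, *Cdkn1a* and *Trp53inp1* overlapped between groups. All 10 genes had a higher mean in *Yy1* KD morulae, and their median log2 fold change was 0.68, beside -0.02 over all genes tested.

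The test was limma on log2(TPM + 1) across all 17353 genes, and a gene was called at a Benjamini-Hochberg adjusted p under 0.05. By this rule 5 of the 10 targets were called upregulated, beside 1.92% of all genes tested. None was called downregulated by limma (0 of 10, and 0 at an unadjusted p under 0.05 or with limma-voom), beside 4.2% of all genes. The 3 *Yy1* KD values lay above the 3 control KD values in 7 of the 10 targets, beside 12.9% of all genes tested. The adjusted p-values of the called genes, 0.0268 to 0.0466, lay close to the threshold, and each fit that left out 1 library called between 0 and 2 of the 10. None of the 10 was called without the variance trend or without the filter on low values (0, with 7 at an unadjusted p under 0.05 in each). With limma-voom on recovered read pairs 7 were called, beside 2086 of 16931 genes called in either direction. The share of all genes at an unadjusted p under 0.05 is not given here, so counts at that threshold have no background beside them.

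**Figure D1:**
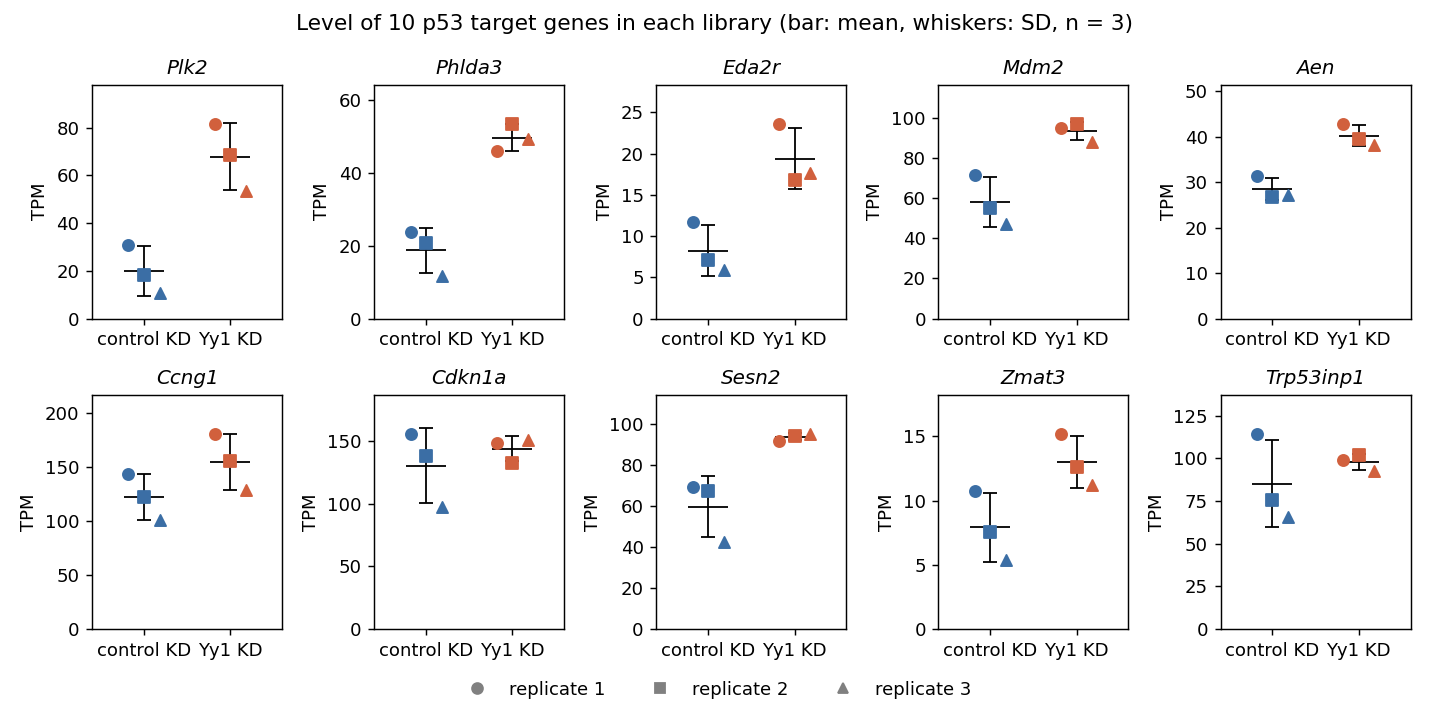
Level in TPM (vertical axis, linear from 0) of the 10 p53 target genes in each of the 3 control KD (blue) and 3 Yy1 KD (orange) libraries, with the mean as a bar and the SD as whiskers. The symbols mark the replicate number, and control KD replicate 1 (circle) is the highest control KD library in all 10 panels.

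*Plk2*, a polo-like kinase involved in centriole duplication, had the largest change of the 10. Control KD replicates 1, 2 and 3 held 31.0, 18.3 and 10.6 TPM, and *Yy1* KD replicates 1, 2 and 3 held 81.6, 68.5 and 53.6 TPM. The lowest *Yy1* KD library was 1.73 times the highest control KD library, while the control KD libraries themselves spanned a 2.92-fold range. The means were 19.9 ± 10.3 and 67.9 ± 14.0 TPM (SD over 3 libraries), and limma gave a log2 fold change of 1.82 ± 0.36 (standard error; 95% interval 0.97 to 2.67; adjusted p = 0.0370). The gene is on chromosome 13 (110395046 to 110400844, plus strand, GRCm38).

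*Phlda3* encodes a small protein with little more than a pleckstrin homology domain, which competes with the kinase AKT for membrane lipids. Its control KD values were 23.8, 20.7 and 11.8 TPM, against 46.1, 53.5 and 49.5 TPM after *Yy1* KD. The groups were well separated, and the *Yy1* KD libraries lay within a 1.16-fold range. The mean rose 2.65-fold, from 18.8 ± 6.25 to 49.7 ± 3.70 TPM (SD over 3 libraries), and limma gave a log2 fold change of 1.41 ± 0.24 (standard error; 95% interval 0.84 to 1.99; adjusted p = 0.0268). *Phlda3* (chromosome 1, 135766119 to 135769136, plus strand) rested on 137 to 557 recovered read pairs per library, the fewest of the 10 genes. It was the one target called without control KD replicate 3 (log2 fold change 1.12, limma adjusted p = 0.0336).

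*Eda2r*, an X-linked gene (97333840 to 97377216, minus strand) for a receptor of the TNF receptor family that binds ectodysplasin-A2, was low but above 5 TPM in every library. The control KD libraries held 11.7, 7.12 and 5.87 TPM and the *Yy1* KD libraries 23.6, 16.9 and 17.6 TPM. The mean rose 2.35-fold from 8.23 ± 3.07 to 19.4 ± 3.70 TPM (SD over 3 libraries), with a log2 fold change of 1.18 ± 0.25 by limma (standard error; 95% interval 0.57 to 1.78; adjusted p = 0.0466). No control KD library reached the lowest *Yy1* KD library.

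*Mdm2*, the ubiquitin ligase that forms the negative feedback loop on p53 (chromosome 10, 117688875 to 117710758, minus strand), was expressed at 71.5, 55.2 and 47.0 TPM in the control KD pools and at 95.0, 97.1 and 88.2 TPM after *Yy1* KD. The *Yy1* KD libraries were nearly level and all higher than the control KD libraries. The mean rose 1.61-fold, from 57.9 ± 12.5 to 93.4 ± 4.64 TPM (SD over 3 libraries), with a log2 fold change of 0.70 ± 0.15 by limma (standard error; 95% interval 0.34 to 1.06; adjusted p = 0.0464).

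*Aen*, the gene of a nuclease that acts on DNA during apoptosis (chromosome 7, 78895854 to 78911209, plus strand), had the smallest change among the called genes and the least variation among control KD libraries. Its values were 31.3, 26.8 and 27.3 TPM in the control KD pools and 42.8, 39.6 and 38.3 TPM after *Yy1* KD. The 1.41-fold difference of the means, 28.5 ± 2.48 and 40.2 ± 2.35 TPM (SD over 3 libraries), was several times the spread of either group (log2 fold change 0.49, standard error 0.10, 95% interval 0.25 to 0.72, limma adjusted p = 0.0405).

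*Sesn2* and *Zmat3* were separated between groups and were not called. *Sesn2*, which encodes a leucine sensor that restrains mTORC1 (chromosome 4, 132492032 to 132510501, minus strand), had 69.2, 67.1 and 42.5 TPM in the control KD pools and 91.8, 94.3 and 94.9 TPM after *Yy1* KD. Its *Yy1* KD values lay within a 1.03-fold range, the narrowest of the 10 genes, whereas control KD replicate 3 lay far below the other control KD libraries. The log2 fold change was 0.68 (standard error 0.18, 95% interval 0.24 to 1.11, limma adjusted p = 0.0814), and it was 0.45 without control KD replicate 3 (limma adjusted p = 0.0716). *Zmat3*, the gene of a zinc finger RNA-binding protein (chromosome 3, 32334792 to 32366014, minus strand), was at 10.8, 7.57 and 5.40 TPM in control KD and at 15.2, 12.6 and 11.2 TPM in *Yy1* KD libraries. The gap between the highest control KD and the lowest *Yy1* KD library was small, 1.04-fold, with a log2 fold change of 0.68 (standard error 0.24, 95% interval 0.11 to 1.26, limma adjusted p = 0.148).

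The remaining 3 targets are the most abundant of the 10 in control KD morulae, and none was called. *Cdkn1a* encodes p21, the inhibitor of cyclin-dependent kinases through which p53 arrests the cell cycle. It was at 155.8, 138.4 and 97.8 TPM in control KD and at 148.4, 133.0 and 151.3 TPM in *Yy1* KD libraries, so that its highest value was in a control KD library. The means were 130.7 ± 29.8 and 144.3 ± 9.82 TPM (SD, n = 3 each), with a log2 fold change of 0.17 (95% interval -0.24 to 0.57, limma adjusted p = 0.607; two-sided exact permutation test, p = 0.7, where 0.1 is the smallest p for 3 libraries against 3). The interval includes a change of up to 0.57, and without control KD replicate 3 the difference was -0.03. *Cdkn1a* (chromosome 17, 29090976 to 29100727, plus strand) was the one target that shared exonic sequence, 273 bases, with another gene, the antisense gene *AC167363.2*, and pairs were assigned without strand, so reads of the pair cannot be told apart there.

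*Ccng1*, the gene of cyclin G1, which acts on MDM2 through the phosphatase PP2A, was at 144.0, 122.5 and 101.3 TPM in control KD and at 180.6, 155.5 and 128.5 TPM in *Yy1* KD libraries. Both groups spanned a range of about the same width, and *Yy1* KD replicate 3 fell among the control KD libraries. The log2 fold change was 0.34 (95% interval -0.06 to 0.73, limma adjusted p = 0.280; exact permutation p = 0.2). *Trp53inp1*, which encodes a stress protein linked to autophagy, was at 114.1, 75.7 and 65.5 TPM in control KD and at 99.1, 102.1 and 92.6 TPM in *Yy1* KD libraries. Control KD replicate 1 was higher than every *Yy1* KD library, and the log2 fold change was 0.24 (95% interval -0.22 to 0.70, limma adjusted p = 0.511; exact permutation p = 0.4). *Ccng1* lies on chromosome 11 (40748552 to 40755311, minus strand) and *Trp53inp1* on chromosome 4 (11156431 to 11174379, plus strand).

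**Figure D2:**
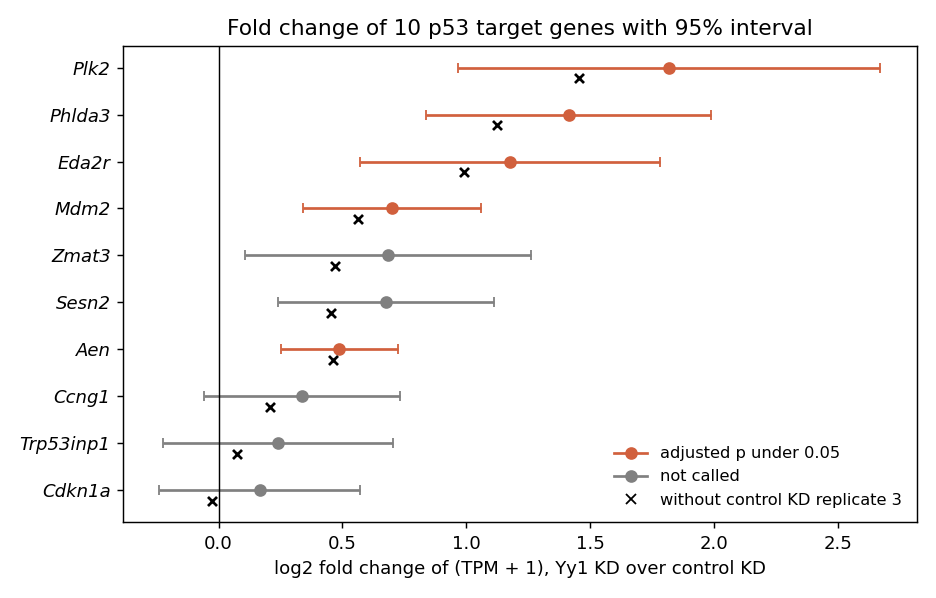
Log2 fold change of TPM + 1 in Yy1 KD over control KD morulae (horizontal axis) for the 10 p53 target genes, ordered by size, with 95% intervals from limma; orange marks called genes, grey the rest, and crosses the value without control KD replicate 3. The intervals of Ccng1, Trp53inp1 and Cdkn1a include 0, and every cross lies to the left of its point.

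The unevenness was also present within single libraries, where the scaling of the library does not matter. These genes were singled out for their different response, so the ratios are given without a test. The log2 ratio of *Plk2* to *Cdkn1a* was -2.33, -2.92 and -3.21 in control KD and -0.86, -0.96 and -1.50 in *Yy1* KD libraries, a difference of the means of 1.71. That of *Phlda3* to *Cdkn1a* was -2.71, -2.74 and -3.05 in control KD and -1.69, -1.31 and -1.61 in *Yy1* KD libraries, a difference of 1.30. Both ratios were therefore higher in each *Yy1* KD library than in any control KD library. The same held for *Eda2r* (difference 1.11), *Zmat3* (0.59), *Mdm2* (0.54) and *Sesn2* (0.52). The ratios of *Aen* (0.33), *Ccng1* (0.17) and *Trp53inp1* (0.07) to *Cdkn1a* overlapped between groups.

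The order of the levels per length changed little. In control KD morulae it ran from *Cdkn1a* and *Ccng1* (122.6 ± 21.3 TPM) through *Trp53inp1* (85.1 ± 25.6 TPM), *Sesn2* (59.6 ± 14.9 TPM), *Mdm2*, *Aen*, *Plk2* and *Phlda3* to *Eda2r* and *Zmat3* (7.91 ± 2.70 TPM; SD, n = 3 each). *Cdkn1a* and *Ccng1*, *Sesn2* and *Mdm2*, *Plk2* and *Phlda3*, and *Eda2r* and *Zmat3* were neighbours whose means differed by less than the SD of either gene. In *Yy1* KD morulae *Ccng1* (154.8 ± 26.0 TPM) stood before *Cdkn1a*, followed by *Trp53inp1* (97.9 ± 4.86 TPM), *Sesn2* (93.7 ± 1.65 TPM) and *Mdm2*. *Plk2* and *Phlda3* there stood above *Aen*, which moved from rank 6 to rank 8, and *Zmat3* (13.0 ± 2.01 TPM) remained last. *Sesn2* and *Mdm2* were again indistinguishable within their spread.

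The targets varied together between the pools of control KD morulae. Control KD replicate 1 was the highest control KD library for 10 of the 10 genes and replicate 3 the lowest for 9, the exception being *Aen*. Over all genes tested, replicate 1 was the highest control KD library for 34.8% and replicate 3 the lowest for 31.0%, and both held for 9 of the 10 targets and for 16.9% of all genes. On the log2 scale the 10 genes deviated from their group mean by 0.38, 0.01 and -0.39 on average in control KD replicates 1, 2 and 3, while the median deviation of all genes was between -0.02 and 0.02 in these libraries. The summed level of the 10 genes was 663, 539 and 415 TPM.

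The *Yy1* KD pools were more alike. The mean deviations were 0.11, -0.01 and -0.10, and the summed levels were 824, 773 and 726 TPM, each above the highest control KD library. *Yy1* KD replicate 1 was the highest for 5 genes and replicate 3 the lowest for 6. The levels fell in the order of *Yy1* KD replicates 1, 2 and 3 for 4 of the 10 targets, beside 15.5% of all genes. On the log2 scale the control KD libraries spread more widely than the *Yy1* KD libraries in all 10 genes, which was so for 47.7% of all genes tested. In TPM this held for 7 of the 10, and *Plk2*, *Eda2r* and *Ccng1* had the larger SD in *Yy1* KD morulae. The median SD on the log2 scale was 0.40 in control KD and 0.10 in *Yy1* KD morulae, beside 0.20 and 0.22 over all genes. The size of the swing differed between genes. From the lowest to the highest control KD library *Plk2* spanned 2.92-fold, *Phlda3* 2.02-fold, *Eda2r* and *Zmat3* 1.99-fold each, *Cdkn1a* 1.59-fold and *Aen* 1.17-fold.

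Across the 6 libraries the deviations of any 2 of the 10 genes from their group means correlated with a mean Pearson's r of 0.80, and all 45 pairs were positive (0.34 to 0.99), beside a mean r of 0.01 over all genes. Within the 3 control KD libraries the mean r was 0.90 with 45 positive pairs, and within the 3 *Yy1* KD libraries it was 0.14 with 26 positive pairs. These are descriptions of 6 libraries, in which every gene of a library shares its embryos, amplification and depth. The control KD libraries held 12519597, 24417789 and 18109905 read pairs, an order that differs from that of the targets. The summed level of 7 oocyte genes (*Zp3*, *Gdf9*, *Bmp15*, *Oosp1*, *Nlrp5*, *Mos* and *Zar1*), whose maternal transcripts decline as embryos develop, was 64.4, 54.9 and 46.6 TPM in control KD and 48.4, 62.1 and 57.2 TPM in *Yy1* KD libraries. In control KD libraries this sum thus followed the order of the targets. Of the 7 genes, 5 were highest in replicate 1 and lowest in replicate 3. The morula markers summed to 2114, 2179 and 2398 TPM in these libraries. Of 11 morula markers, 3 (*Gata3*, *Gata6* and *Krt18*) were highest in replicate 1 and lowest in replicate 3, beside 16.9% of all genes. Between the groups 0 of the 7 oocyte genes were called by limma (0 at an unadjusted p under 0.05 and 0 with limma-voom). Among all genes tested limma called 1.92% upregulated and 4.2% downregulated. The parts of depth and of embryo stage in the spread of the targets were not tested.

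**Figure D3:**
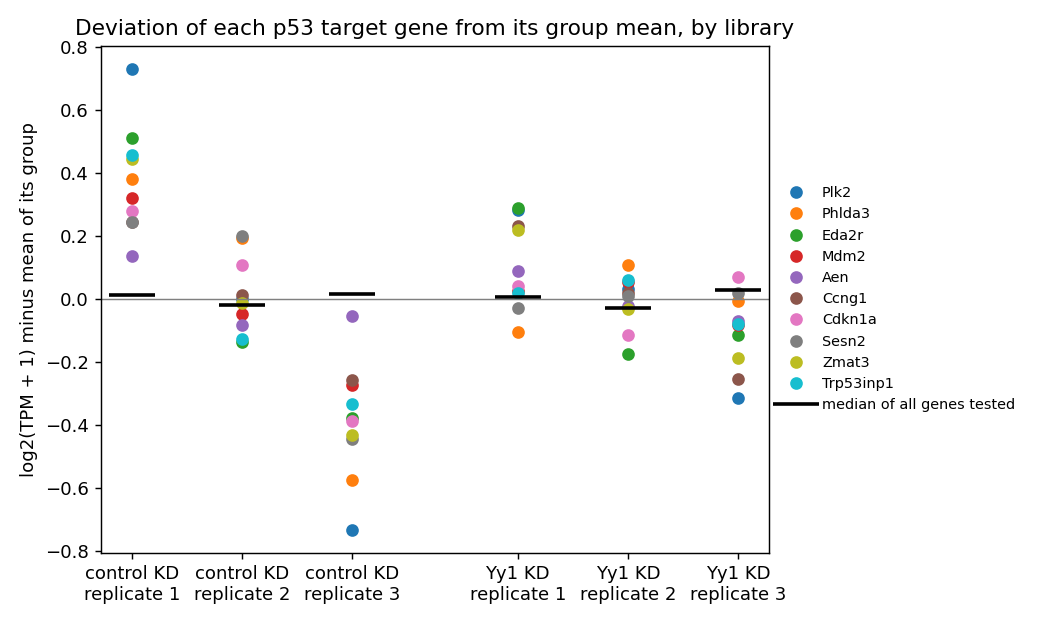
Deviation of each of the 10 p53 target genes from the mean of its group, on the log2(TPM + 1) scale (vertical axis), in the 6 libraries (horizontal axis), one colour per gene; black bars give the median over all genes tested. All 10 genes lie above 0 in control KD replicate 1 and below 0 in control KD replicate 3. The genes spread less in the Yy1 KD libraries, by little in the case of Ccng1.

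Without control KD replicate 3 the 10 genes had a median of 0.46 on the log2 scale and 1 gene, *Phlda3*, was called, and without control KD replicate 1 the median was 0.83 and 2 genes, *Plk2* and *Mdm2*, were called. *Plk2* was at 1.45 and *Eda2r* at 0.99 without control KD replicate 3. Leaving out any other single library (control KD replicate 2 or *Yy1* KD replicate 1, 2 or 3) called 0 of the 10 genes, with 6 to 8 at an unadjusted p under 0.05.

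The mRNA of p53 itself was at nearly the same level in both groups. *Trp53* was at 43.7, 47.2 and 42.6 TPM in control KD and at 47.1, 45.0 and 45.6 TPM in *Yy1* KD libraries, a log2 fold change of 0.05 (95% interval -0.14 to 0.24, limma adjusted p = 0.778). These values are of mRNA. The p53 protein, its binding and the dependence of the targets on p53 in these morulae were not tested. *Mdm4*, the partner of MDM2 in restraining p53, had means of 24.5 ± 0.739 and 22.9 ± 1.21 TPM (SD over 3 libraries), a log2 difference of -0.09 (limma adjusted p = 0.605). Of 18 genes tested for p53 and its regulators, 0 were called upregulated and 1 downregulated by limma, beside 1.92% and 4.2% of all genes. At an unadjusted p under 0.05 there were 4 in each direction. With limma-voom *Atm*, *Rpl5* and *Rpl11* were called upregulated and *Chek2*, *Crebbp* and *Prkdc* downregulated. Over all genes limma-voom called 2086 of 16931 in either direction. The acetyltransferase gene *Crebbp*, whose product is a coactivator of p53, was the one called by limma (95.3 ± 2.48 to 76.5 ± 0.639 TPM, SD over 3 libraries, a log2 difference of -0.31, limma adjusted p = 0.0432).

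Other p53 targets were called in both directions. Of 31 genes tested from a list of 38, 2 were upregulated and 2 downregulated, beside 1.92% and 4.2% of all genes. The median log2 fold change was 0.11, with 20 genes higher and 11 lower. At an unadjusted p under 0.05 there were 7 up and 5 down. Of 30 genes tested with limma-voom, 6 were called up and 2 down, adding *Btg2*, *Gtse1*, *Ppm1d* and *Psrc1* to the upregulated genes. Over all genes limma-voom called 2086 of 16931 in either direction, a larger share than the 1061 of 17353 called by limma. *Ckap2*, which encodes a spindle protein, rose from 56.9 ± 5.87 to 98.8 ± 9.98 TPM (log2 fold change 0.79, limma adjusted p = 0.0160), and *Bbc3*, the gene of the death-promoting protein PUMA, from 6.05 ± 2.03 to 15.1 ± 1.56 TPM (1.23, limma adjusted p = 0.0370; SD, n = 3 each). *Steap3*, a metalloreductase gene, fell from 35.5 ± 5.0 to 16.4 ± 3.56 TPM (-1.08, limma adjusted p = 0.0248), and *Perp*, the gene of a desmosomal membrane protein, from 144.4 ± 17.2 to 91.4 ± 15.5 TPM (-0.66, limma adjusted p = 0.0492). The apoptosis genes *Pmaip1* (0.70, limma adjusted p = 0.399) and *Bax* (-0.29, limma adjusted p = 0.107) were not called. Among these 31 genes 7 were highest in control KD replicate 1 and lowest in replicate 3, beside the 16.9% of all genes given above.

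Paralogs of the 10 genes, of which *Sesn1* is itself a p53 target, were also called in both directions. Of 14 tested from a list of 19, 1 was upregulated and 2 were downregulated, beside 1.92% and 4.2% of all genes with limma. With limma-voom the counts were 1 and 3, adding *Cdkn1b*, beside 2086 of 16931 genes called in either direction. Counts in so short a list are a description. The median log2 fold change was -0.09, and 0 of the 14 shared the order of replicate 1 highest and replicate 3 lowest. *Cdkn1c*, the gene of p57, a CDK inhibitor related to p21, rose from 3.58 ± 1.02 to 18.1 ± 8.41 TPM (SD, n = 3 each; 2.0 on the log2 scale, limma adjusted p = 0.0227), with single values of 13.7, 27.8 and 12.7 TPM in *Yy1* KD libraries. *Cdkn1b*, the gene of p27, was at 1.99 ± 0.191 and 0.642 ± 0.263 TPM (SD, n = 3 each; -0.88, limma adjusted p = 0.0826). Among the polo-like kinases, *Plk4*, which initiates centriole duplication, fell from 23.4 ± 1.84 to 15.0 ± 0.865 TPM (SD, n = 3 each; -0.61, limma adjusted p = 0.0302), and *Plk1* (-0.09) and *Plk3* (-0.23) were not called. *Zmat2*, a splicing factor gene, fell as well (-0.65, limma adjusted p = 0.0301). *Phlda1* (0.25), *Sesn1* (0.13), *Sesn3* (0.26), *Isg20* (0.67), *Isg20l2* (0.13), *Trp53inp2* (-0.35) and *Zmat5* (-0.13) were not called. *Phlda2*, *Edar*, *Ccng2*, *Zmat1* and *Zmat4* were too low to be tested.

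*Sesn2* is also induced by the transcription factor ATF4 in the integrated stress response, so genes of that response are given beside it. The list of 10 genes had 11 entries, of which 8 were tested. *Ddit3* was counted under each of its identifiers, and *Atf3*, *Slc7a11* and *Vldlr* were too low to be tested. None of the 8 was called by limma (0, with 1 at an unadjusted p under 0.05 and 0 with limma-voom), and their median log2 fold change was 0.18. Among all genes 1.92% were called upregulated and 4.2% downregulated by limma.

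**Figure D4:**
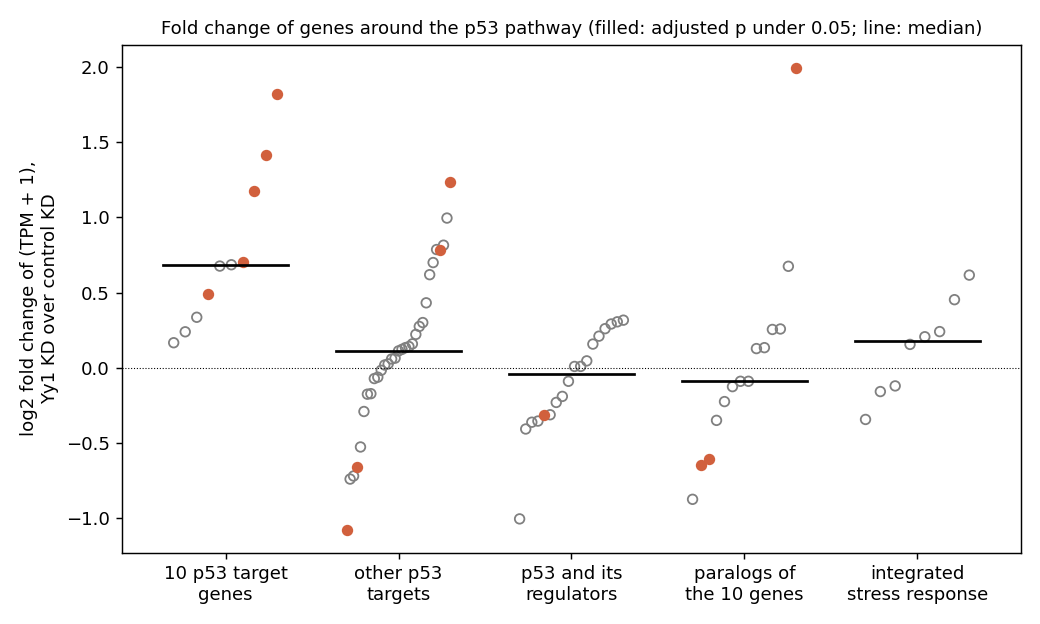
Log2 fold change of TPM + 1 in Yy1 KD over control KD morulae (vertical axis) for each gene tested in 5 groups (horizontal axis), with filled points for called genes and a line at the median. The 10 p53 target genes have a median of 0.68, other p53 targets 0.11, p53 and its regulators -0.04, paralogs -0.09 and the integrated stress response 0.18.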

How the data were processed

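RNA-seq was performed on 3 control KD and 3 *Yy1* KD libraries, grouped by their labels. The authors trimmed reads with Trim Galore (0.6.7), aligned them to mm10 with HISAT2 (2.2.1), removed ribosomal RNA reads with bedtools, assigned pairs to GENCODE vM25 genes with featureCounts (2.0.1; pairs on several genes divided, strand ignored) and deposited TPM. TPM sums to the same total per library, so each value depends on the rest of the library. The authors tested counts with edgeR; since TPM is no count, limma (3.58.1, R 4.3.3) was fitted here to log2(TPM + 1), with a variance trend and no block, over genes that reached a TPM of 1 in 3 or more of 6 libraries. Fold changes on this scale understate the change of low genes. Two-sided p-values were Benjamini-Hochberg adjusted over all genes. The test was run on simulated data with independent noise in each gene. Such data hold no deviation shared between the genes of a library, so the test was not checked under shared deviations. The number of read pairs behind a TPM was obtained from the exon lengths of GENCODE vM21, in which 98.1% of identifiers matched. Nothing in the labels says that pools came from separate matings or days, so p-values measure the spread between these libraries, which may be technical. No column of values was left unused (0).

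The members and lists were chosen with earlier results of these data known. Named genes are all members, *Yy1*, called genes of each list, *Trp53*, *Mdm4*, *Bbc3*, *Pmaip1*, *Bax* and the paralogs, and the 5 genes most like the members. *Rps27l* and genes called by limma-voom alone were named after their values were seen, and the oocyte genes are the whole marker list behind a printed sum. Alternatives were a pseudocount of 0.1, no filter, a filter on mean TPM (5 or more), median-ratio scaling, no trend, quantile normalization, robust variances, a replicate block, leaving out each library, and limma-voom on recovered pairs. Figures were drawn with matplotlib 3.10.9 in Python 3.11.15.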

Additional observations from a re-analysis of the deposited data

How the results depend on the processing

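Across 15 alternatives, 149 of the 150 log2 fold changes of the 10 p53 targets kept their direction, and the exception was *Cdkn1a* without control KD replicate 3, at -0.0278 (0.305 without control KD replicate 1). Calls were less stable than directions. Of the 10 targets, 5 were called in the reported test and 5 with median-ratio scaling, a pseudocount of 0.1, quantile normalization, robust variances or a filter on mean TPM (5 or more). With limma-voom 7 were called, *Sesn2* and *Zmat3* in addition. With no filter on low values 0 were called (lowest limma adjusted p 0.0683, with 35852 genes tested), and without the variance trend 0 (lowest 0.0543), with 7 at an unadjusted p under 0.05 in both. Leaving out 1 library called 0 to 2. The median log2 fold change was 0.46 to 0.83 when 1 library was left out. Over all genes, 1061 were called in the reported test, 347 without the filter, 514 without the trend, 2086 with limma-voom, 287 with a replicate block and 75 to 418 without 1 library. Over all genes the deviations of same-numbered libraries of the 2 groups correlated little (r = -0.00, 0.03 and 0.07), beside -0.07 to 0.04 for differently numbered libraries. The labels do not say whether the number pairs the libraries, and these values cannot decide it. The replicate block left 2 targets called, *Plk2* and *Eda2r*. The fewest recovered read pairs were those of *Phlda3* (137 to 557) and *Eda2r* (258 to 1077).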

Other observations

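The 5 genes outside the list whose levels followed the 10 p53 targets most closely over the 6 libraries were *Fcf1* (r = 0.991 with the mean of the standardised target profiles), *Gtse1* (0.987), *Gm4419* (0.986), *Gm25353* (0.985) and *Ciao2b* (0.985), among genes with a mean of at least 10 TPM, and limma called 0 of the 5 (5 at an unadjusted p under 0.05), while limma-voom on recovered read pairs called 3 of them, *Gtse1*, *Gm4419* and *Gm25353*. *Gtse1*, itself a p53 target whose product restrains p53, was at 69.3, 60.5 and 47.5 TPM in control KD and at 100.3, 87.2 and 84.0 TPM in *Yy1* KD libraries (log2 fold change 0.62, limma adjusted p = 0.0607, limma-voom adjusted p = 0.00864). It had the order of the targets in the control KD pools, and its promoter window held a match to the p53 consensus with 1 mismatch. *Fcf1*, which encodes a factor of ribosomal RNA processing, was at 246.7, 222.6 and 211.0 TPM in control KD and at 275.4, 265.0 and 259.8 TPM in *Yy1* KD libraries. The 10 targets themselves correlated with their shared profile at 0.78 (*Cdkn1a*) to 0.99 (*Zmat3*), a value that includes each gene's own part of the profile. The genes were picked for this likeness out of all genes over 6 libraries that fall into 2 groups, so the values are a description and carry no test.

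*Rps27l*, another p53 target with 1 mismatch to the consensus in its promoter window, was at 159.1, 145.5 and 117.3 TPM in control KD and at 159.6, 135.9 and 120.7 TPM in *Yy1* KD libraries. It was chosen after its values were seen. It thus shared the order of the control KD pools with the 10 targets while its group means, 140.6 ± 21.3 and 138.8 ± 19.6 TPM (SD, n = 3 each), differed by less than their spread (log2 fold change -0.02, limma adjusted p = 0.960).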
